A study of Mus musculus with 12 samples.

Results

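The comparison described here sets tumour T cells from the libraries tagged CTX against those tagged PBS in a single-cell T cell receptor table. Its members were the cells of the 4 libraries that the table names CTX, CTX2, PBS1 and PBS2, which held 2903 called cells, out of 11518 in the 6 named libraries of the table that could be tied to a sample. CTX held 773 cells, CTX2 1333, PBS1 245 and PBS2 552. Productive contigs in called cells were used, and cells of 1 library were put in one clone where their beta chain (TRB) contig with most molecules had the same V gene and the same CDR3 nucleotides.

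All libraries are labelled as immune cells positive for CD45, a surface protein of leukocytes, from mammary tumours of Balb/c mice. The receptor table holds no marker of CD45 or of a T cell subset. The treatment text attached to every record, untreated ones included, names 3 weeks of cyclophosphamide, an alkylating chemotherapy, with pexidartinib, an inhibitor of the receptor for the macrophage growth factor CSF1. CTX and CTX2 are receptor libraries labelled treated, and PBS1 is tied to an expression library labelled untreated. PBS2 carries conflicting labels, since its receptor record says treated and the record of its paired expression library says untreated. The labels define neither tag and give no mouse for any library, so the tags are used as names only, and p-values measure the spread between libraries, which may be technical. The age of the mice and the tumour model were not given in the sources used here. Of the 4 libraries, CTX2 alone has a title that starts with JR, so its numbering series and its values cannot be told apart.

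A T cell receptor is joined from V, D and J gene segments, with bases trimmed and added at the joints, and the joined stretch encodes CDR3, the loop that meets the antigen. Daughter cells inherit the joint, so its nucleotides tag the descendants of 1 T cell, and a tumour antigen that drives division leaves large clones. Since several codons spell the same amino acid, T cells of separate origin can carry the same receptor protein written in different nucleotides.

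The 4 libraries were small and of unequal depth. A productive TRB was found in 532 cells of CTX, 1085 of CTX2, 192 of PBS1 and 432 of PBS2, and a productive alpha chain (TRA) in 504, 1044, 188 and 404. Unique molecular identifiers (UMIs), which count captured molecules, ran from 6807 in PBS1 to 42690 in CTX2, and the strongest TRB contig rested on a median of 7 UMIs in CTX and PBS2, 10.5 in PBS1 and 16 in CTX2. In called cells, 0 immunoglobulin contigs, the mark of B cells, and 1 gamma or delta chain contig (PBS2) were found. CTX2 shared 1 cell barcode with PBS1 and 1 with PBS2, PBS1 and PBS2 shared 1, and no TRB nucleotide clone occurred in more than 1 of the 4 libraries. Alpha sequences did recur. Each pair of libraries, within or across the tags, shared TRA nucleotide sequences, from 1 in PBS1 and PBS2 to 10 in CTX and CTX2. Shared TRA proteins ran from 6 to 18 a pair.

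The largest clone of each library used a different V and J pair. CTX was led by a TRBV2/TRBJ2-5 clone of 41 cells (7.71% of its TRB cells), CTX2 by a TRBV4/TRBJ2-7 clone of 117 cells (10.8%), PBS1 by a TRBV14/TRBJ2-4 clone of 17 cells (8.85%) and PBS2 by a TRBV13-2/TRBJ2-5 clone of 27 cells (6.25%). Their CDR3 nucleotides are given to show how little of the loop they share beyond the ends, with the bases between the first and last 4 codons in capitals.
CTX, TRBV2/TRBJ2-5: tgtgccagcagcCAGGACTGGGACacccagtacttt
CTX2, TRBV4/TRBJ2-7: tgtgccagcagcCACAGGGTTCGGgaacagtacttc
PBS1, TRBV14/TRBJ2-4: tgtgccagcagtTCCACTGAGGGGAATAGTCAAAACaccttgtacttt
PBS2, TRBV13-2/TRBJ2-5: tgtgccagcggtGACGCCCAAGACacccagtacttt
The CTX leader paired with a TRAV14N-1/TRAJ47 alpha chain in 36 of the 36 cells with a TRA, and the CTX2 leader with TRAV7D-4/TRAJ49 in 109 of 111. The PBS1 leader paired with TRAV12-1/TRAJ45 in 15 of 16 cells, and the PBS2 leader with TRAV12D-2/TRAJ39 in 24 of 24. The alpha chain took no part in defining a clone.

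Clones of 10 or more cells held the most of CTX2 and the least of PBS2, with CTX and PBS1 close to each other. These clones held 15.8% of TRB cells in CTX (4 clones), 50.05% in CTX2 (14 clones), 15.1% in PBS1 (2 clones) and 6.25% in PBS2 (1 clone). Both CTX libraries lay above both PBS libraries, although CTX and PBS1 were within 1 percentage point and their exact 95% intervals, 12.8 to 19.2 and 10.4 to 20.97, overlapped. The means were 32.9% ± 24.2 and 10.7% ± 6.26 (SD, n = 2 each), a difference of 22.2 points (two-sided exact permutation p = 0.3333, the smallest that 2 libraries against 2 can give). Without CTX2 the difference was 5.11 points and without CTX 39.4. Drawn down by exact expectation to the 192 TRB cells of PBS1, the shares were 7.98% in CTX, 29.1% in CTX2, 15.1% in PBS1 and 5.57% in PBS2, so the tags overlapped and the difference was 8.18 points. Drawn down in this way and without CTX2, the difference turned to -2.36 points. The tags also overlapped with clones set by CDR3 amino acids, where the difference was 20.8 points, and the difference was 8.92 with PBS2 counted as treated.

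The broader share, cells in any clone of 2 or more, did not separate the tags. It was 35.2% in CTX, 60.6% in CTX2, 37.5% in PBS1 and 16.4% in PBS2, so the tags overlapped. The difference of means was 20.9 points (SD 18.0 for CTX and 14.9 for PBS, two-sided exact permutation p = 0.667, n = 2 and 2). Leaving out CTX2 gave 8.18 points, PBS2 10.4, PBS1 31.5 and CTX 33.7, and counting PBS2 as treated turned the difference to -0.0898 points. These values are at unequal cell numbers. Drawn down to 192 TRB cells, the shares were 27.8% in CTX, 52.9% in CTX2, 37.5% in PBS1 and 13.6% in PBS2, and the tags still overlapped.

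The share of clones with 2 or more cells was 9.92% in CTX, 11.6% in CTX2, 9.77% in PBS1 and 3.99% in PBS2. The mean size of those clones was 4.92 cells in CTX, 11.8 in CTX2, 5.54 in PBS1 and 4.73 in PBS2. The 14 largest clones of CTX2 were enough to hold 50% of its TRB cells, where CTX needed 117, PBS1 37 and PBS2 160. The Gini index of clone size, 0 where all clones are equal, was 0.269 in CTX, 0.539 in CTX2, 0.292 in PBS1 and 0.127 in PBS2. On each of these 4 measures CTX2 and PBS2 lay at the ends, with CTX and PBS1 between them.

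**Figure D1:**
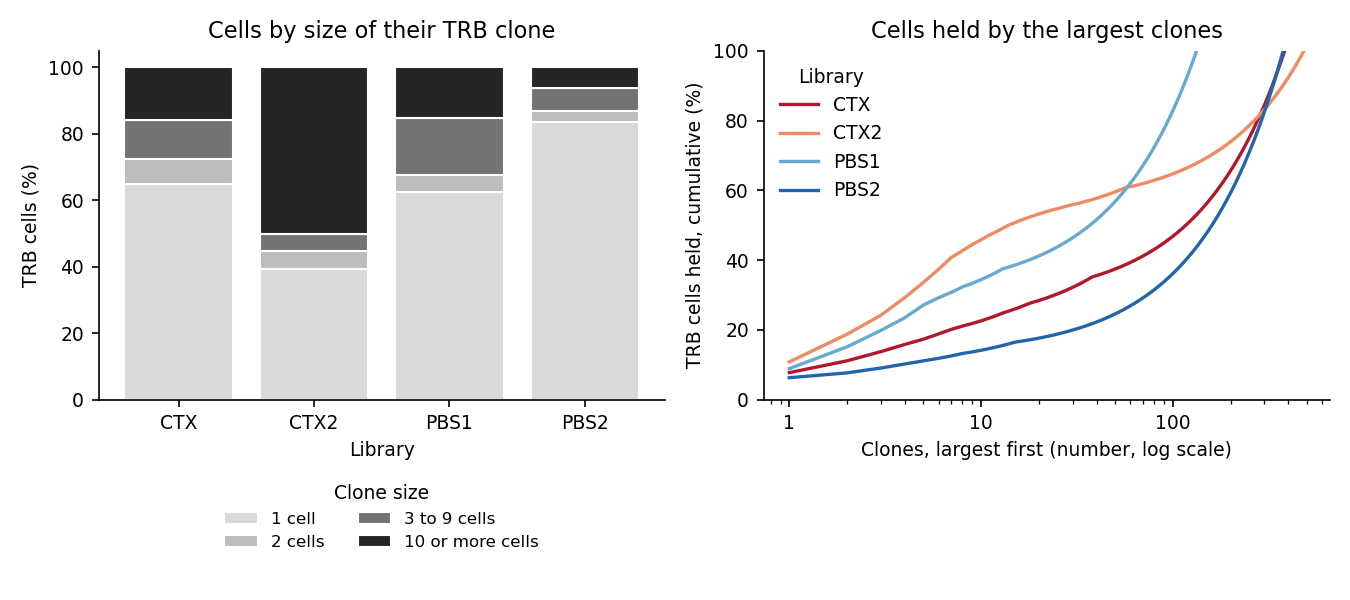
Left, percent of TRB cells by the size of their clone in each of the 4 libraries. Right, cumulative percent of TRB cells held by the clones of each library, largest first, on a log axis. CTX2 reaches 50% of its cells with 14 clones and PBS2 with 160, while CTX and PBS1 lie between them.

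In CTX2 10 of the 14 clones of 10 or more cells, with 327 of their 543 cells, used the TRBV13 family, and 2 used TRBV14. The family made up 37.3% of all CTX2 clones, no test of the difference was made, and 2 of the 10 clones, of 86 and 55 cells, had the same TRB protein. In CTX 1 of 4 large clones was TRBV13, a 14-cell TRBV13-1/TRBJ2-7 clone, beside clones of TRBV2, TRBV19 (18 cells, TRBJ2-5) and TRBV1 (11 cells, TRBJ1-1). PBS1 had 1 large clone of TRBV13-2/TRBJ1-4 (12 cells) beside its TRBV14 leader. The next in size were TRBV1/TRBJ1-6 and TRBV13-2/TRBJ2-5 with 8 cells each in CTX, TRBV13-3/TRBJ2-7 with 9 cells and TRBV20/TRBJ1-3 and TRBV14/TRBJ2-3 with 7 each in PBS1, and TRBV13-1/TRBJ2-7 and TRBV14/TRBJ1-3 with 6 each in PBS2.

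Some receptor proteins were written in more than 1 nucleotide sequence. Among the 1375 TRB clones of the 4 libraries, 11 TRB proteins (the same V gene, J gene and CDR3 amino acids) had 2 or more, in all 32 sequences in 261 cells. Of the 11, 9 occurred in 2 or more libraries and 5 in libraries of both tags. CTX and CTX2 shared 3 and PBS1 and PBS2 shared 2, while pairs of libraries across the tags shared 0 to 3. Of the 11, 7 used the TRBV13 family, 3 TRBV5 and 1 TRBV31. Among all clones of a library the family made up 30.1% to 38.9%, TRBV5 7.18% to 9.92% and TRBV31 3.76% to 6.21%, and no test was made. The 11 proteins made up 5.83% of TRB cells in CTX, 16.4% in CTX2, 9.90% in PBS1 and 7.64% in PBS2, or 2.35%, 2.28%, 5.26% and 1.33% of clones. These proteins were picked out after the values were seen. Of the 5 found under both tags, 1 is left without CTX and 2 without PBS2, and 4 without CTX2 or without PBS1.

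The widest example was a TRBV13-2/TRBJ2-4 protein of 14 residues, and its sequences are shown because the changes fall only at 2 codons. Capitals mark the bases that differ between the 7 sequences.
CTX, 3 cells: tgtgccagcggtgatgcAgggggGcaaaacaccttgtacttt
CTX2, 86 cells: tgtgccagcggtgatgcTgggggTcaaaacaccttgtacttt
CTX2, 55 cells: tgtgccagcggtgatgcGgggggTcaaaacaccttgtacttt
CTX2, 7 cells: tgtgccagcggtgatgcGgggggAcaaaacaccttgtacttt
CTX2, 4 cells: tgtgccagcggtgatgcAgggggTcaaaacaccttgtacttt
CTX2, 3 cells: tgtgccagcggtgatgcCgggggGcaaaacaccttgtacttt
CTX2, 2 cells: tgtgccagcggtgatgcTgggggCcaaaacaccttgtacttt
Both variable positions are the last base of a codon, and the protein is the same in all 7. CTX2 held 157 cells of this protein, 14.5% of its TRB cells, while CTX held 3 and PBS1 and PBS2 held 0.

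The alpha chains of these cells also differed, though not with each change of the beta sequence. All 7 sequences paired with TRAJ22, in 82 of 82 cells with a TRA for the 86-cell clone and in 52 of 52 for the 55-cell clone, and the V gene was called TRAV7-1 in all but 2 cells, where it was TRAV7D-2. The TRA CDR3 is shown with capitals where the sequences differ.
CTX, 3 cells: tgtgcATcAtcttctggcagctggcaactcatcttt
CTX2, 77 cells: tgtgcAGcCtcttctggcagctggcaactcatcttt
CTX2, 52 cells: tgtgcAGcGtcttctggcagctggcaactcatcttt
CTX2, 14 cells called TRAV7-1 and 2 called TRAV7D-2: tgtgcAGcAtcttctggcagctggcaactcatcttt
CTX2, 3 cells: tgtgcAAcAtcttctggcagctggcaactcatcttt
CTX2, 2 cells: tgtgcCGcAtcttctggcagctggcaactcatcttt
The sequence of 77 cells came from the 86-cell beta clone and that of 52 cells from the 55-cell clone. The 7 cells of the 7-cell clone and the 4 cells of the 4-cell clone all carried the sequence listed for 14 and 2 cells. The rest of the cells listed with it were of the 86-cell clone, in which 77 of 82 cells carried the 77-cell sequence. Those beta sequences thus shared an alpha sequence. The 7-cell clone also had a TRAV15-1-DV6-1/TRAJ33 chain in 6 cells, and the 4-cell clone had no second alpha chain. The CTX alpha chain differed from the CTX2 ones by 1 residue of 12. In CTX2 5 clones lay 1 base from a larger clone of the same V gene, J gene and length, all 5 encoded the same protein as the larger clone, and all 5 held 2 or more cells. In CTX there was 1 such clone (same protein), in PBS1 4 (2 with the same protein) and in PBS2 0, each of a single cell.

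Another protein was found in CTX and PBS2. It joined TRBV13-2 to TRBJ2-5 with a CDR3 of 12 residues, and it was the largest clone of PBS2 and a clone of 8 cells in CTX.
CTX, 8 cells: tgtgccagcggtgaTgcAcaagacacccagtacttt
PBS2, 27 cells: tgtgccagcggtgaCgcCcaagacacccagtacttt
Capitals mark the 2 bases that differ, each in a codon for the same residue. A TRAV12D-2/TRAJ39 alpha chain with identical CDR3 nucleotides was found in 6 of the 8 CTX cells and in 24 PBS2 cells. Of the 24, 4 had their V gene called TRAV12N-1, a near copy. In CTX it was the second alpha chain, and all 8 CTX cells carried a TRAV13D-2/TRAJ42 chain.

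The protein TRBV13-1/TRBJ2-7 with 13 residues was found under both tags in 3 of the 4 libraries. It is shown because each of its 5 sequences was seen in 1 library only.
CTX, 14 cells: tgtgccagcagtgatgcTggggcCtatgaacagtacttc
CTX, 1 cell: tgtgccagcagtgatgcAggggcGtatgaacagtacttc
CTX, 1 cell: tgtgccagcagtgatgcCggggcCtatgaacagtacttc
PBS1, 4 cells: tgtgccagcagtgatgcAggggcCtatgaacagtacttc
PBS2, 1 cell: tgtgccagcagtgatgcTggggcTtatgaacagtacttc
All 5 paired with TRAV14N-1/TRAJ58 and an alpha CDR3 of 13 residues, shown here with capitals at the differing bases (the 14 CTX cells are those of all 3 CTX sequences that had a TRA).
CTX, 14 cells: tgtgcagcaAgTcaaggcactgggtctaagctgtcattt
PBS1, 4 cells: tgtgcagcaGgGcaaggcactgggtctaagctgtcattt
PBS2, 1 cell: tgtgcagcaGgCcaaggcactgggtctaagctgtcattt
PBS1 and PBS2 carried the same alpha protein in different nucleotides, and CTX differed from both by 1 residue.

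The other proteins found in 2 or more libraries had fewer cells. The TRBV31/TRBJ1-1 protein had 4 cells in CTX2 and 1 in CTX, all with TRAV9D-1/TRAJ13 chains of 13 residues that differed by 1 residue. TRBV5/TRBJ1-4, 1 cell each in CTX and PBS1, came with identical TRAJ52 nucleotides, and TRBV5/TRBJ2-5, 1 cell each in CTX and CTX2, with TRAJ56 chains that differed by 1 residue. TRBV5/TRBJ2-1, with 16 cells in CTX2 (11, 3 and 2) and 3 in PBS2, and 2 further TRBV13 sets seen in 2 libraries had no alpha J gene in common between libraries, and of 1 of these sets the CTX cell had no TRA. Counting all, 6 of the 9 proteins found in 2 or more libraries shared an alpha J gene and an alpha CDR3 length between libraries. For scale, 0.752% of the 512249 pairs of clones from different libraries, each with its most frequent TRA, shared both. That share uses 1 alpha chain a clone and the sets use every alpha chain, and the proteins were chosen after seeing the data, so no test is given. Of the libraries not compared here, the one named Combined held 3 cells of the TRBV13-2/TRBJ2-4 protein in 3 clones and 1 cell of the TRBV13-3/TRBJ2-7 protein, and the one named CSF1R held 1 cell of the TRBV13-1/TRBJ1-6 protein.

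**Figure D2:**
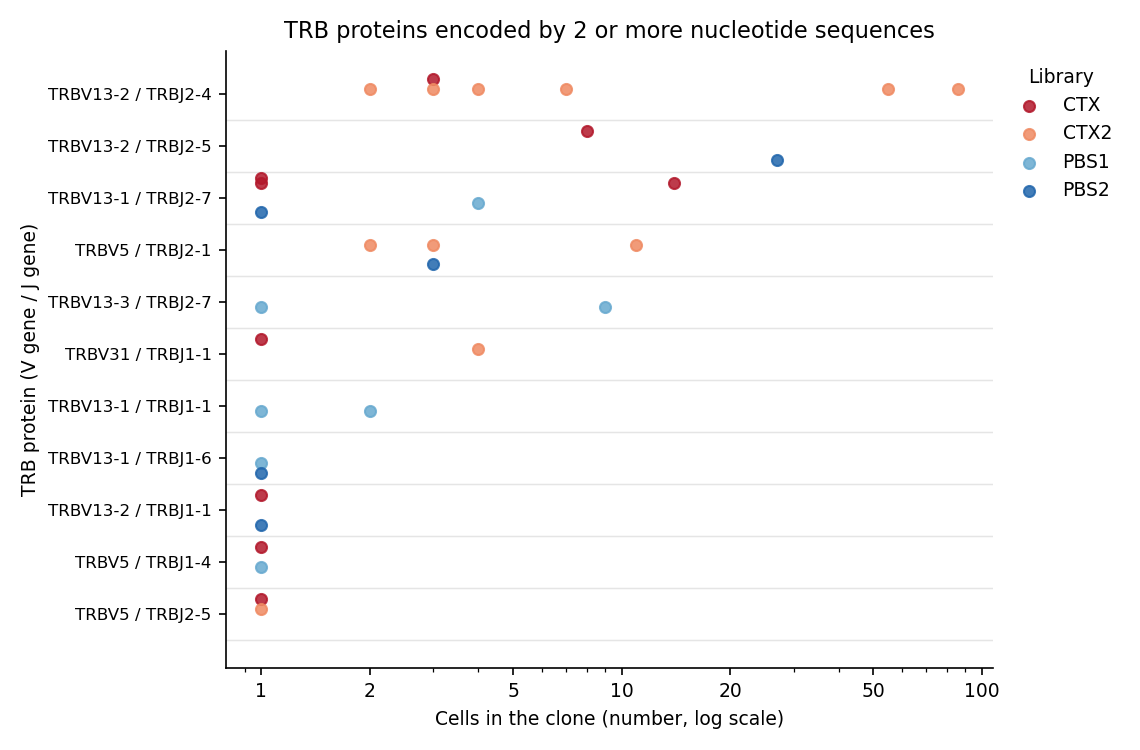
Each point is 1 nucleotide clone, placed by its number of cells on a log axis, for the 11 TRB proteins written in 2 or more nucleotide sequences, with colour for the library. The TRBV13-2/TRBJ2-4 protein has 6 CTX2 clones of 2 to 86 cells, and 5 of the proteins have both red (CTX-tagged) and blue (PBS-tagged) points.

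Several alpha chains were carried by more than 1 expanded beta clone. An alpha protein (the same J gene and CDR3 amino acids) was listed where it lay in 50% or more of the TRA cells of 2 or more TRB clones of 4 or more cells, a rule set after seeing the data, and 5 met it. The TRAJ22 protein of the 77-cell and 52-cell sequences above was found in 182 of 1044 TRA cells of CTX2, 17.4% (exact 95% interval 15.2 to 19.9), over 10 TRB clones. It was found in 0 of 504 cells of CTX, 0 of 188 of PBS1 and 0 of 404 of PBS2, which allows shares of up to 0.595%, 1.596% and 0.743%. These limits and the intervals of all listed chains count each cell as independent. For this protein 82 cells came from the 86-cell beta clone and 52 from the 55-cell clone. The protein met the listing rule through CTX2 clones only, so its high share there is in part set by the rule. The TRAJ22 chain of the 3 CTX cells above, 1 residue away, is not counted in it. Besides the TRBJ2-4 clones, it was carried by 2 TRBV13-2 clones with other J genes and the same beta CDR3 length of 14 residues, shown with the bases between the first and last 4 codons in capitals.
CTX2, TRBV13-2/TRBJ1-1, 15 cells: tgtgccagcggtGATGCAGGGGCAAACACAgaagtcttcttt
CTX2, TRBV13-2/TRBJ1-2, 5 cells: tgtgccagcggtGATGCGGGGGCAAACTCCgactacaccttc
All 15 and all 5 cells had the TRAJ22 chain, with the V gene called TRAV7D-2 in place of TRAV7-1.

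A TRAV12-1/TRAJ45 chain was seen mostly with TRBV14, under both tags. It was found in 48 cells of CTX2 (4.60%, exact 95% interval 3.41 to 6.05), 24 of PBS1 (12.8%, 8.35 to 18.4), 4 of PBS2 (0.990%, 0.270 to 2.52) and 0 of CTX. Its TRBV14 partners were 47-cell and 6-cell clones in CTX2, 17-cell and 7-cell clones and a single cell in PBS1 and a 6-cell clone in PBS2. Those clones used TRBJ2-3, TRBJ1-3 or TRBJ2-4 and beta CDR3 lengths of 13 to 16 residues, so the alpha chain and the beta V gene recurred while the rest of the beta chain varied. Its CDR3 nucleotides were the same in CTX2 and in 23 cells of PBS1, and differed in PBS2. Outside TRBV14 it was seen in 1 cell of CTX2 and 1 of PBS1.

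The other chains with a cell under both tags were carried mostly by TRBV13 clones. The TRAV14N-1/TRAJ58 chain of the CTX clones above, with the same nucleotides in each library, was found in 14 cells of CTX (2.78%), 37 of CTX2 (3.54%), 6 of PBS2 (1.49%) and 0 of PBS1. In CTX2 it was the second alpha chain of a 37-cell TRBV13-3/TRBJ2-7 clone. The TRAV12D-2/TRAJ39 chain was found in 10 cells of CTX (1.98%), 5 of CTX2 (0.479%), 28 of PBS2 (6.93%) and 0 of PBS1, of which 188 cells allow a share of up to 1.596%. A TRAV9-4/TRAJ2 chain was seen in 4 cells of CTX alone, in 2 clones. Among the libraries not compared, Combined had the TRAJ22 chain in 6 of 6070 TRA cells (0.0988%) and the TRAJ45 and TRAJ39 chains in 1 each. CSF1R had the TRAJ58 chain in 1 of 764. None of the 5 chains was found in both CTX libraries and absent from both PBS libraries.

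**Figure D3:**
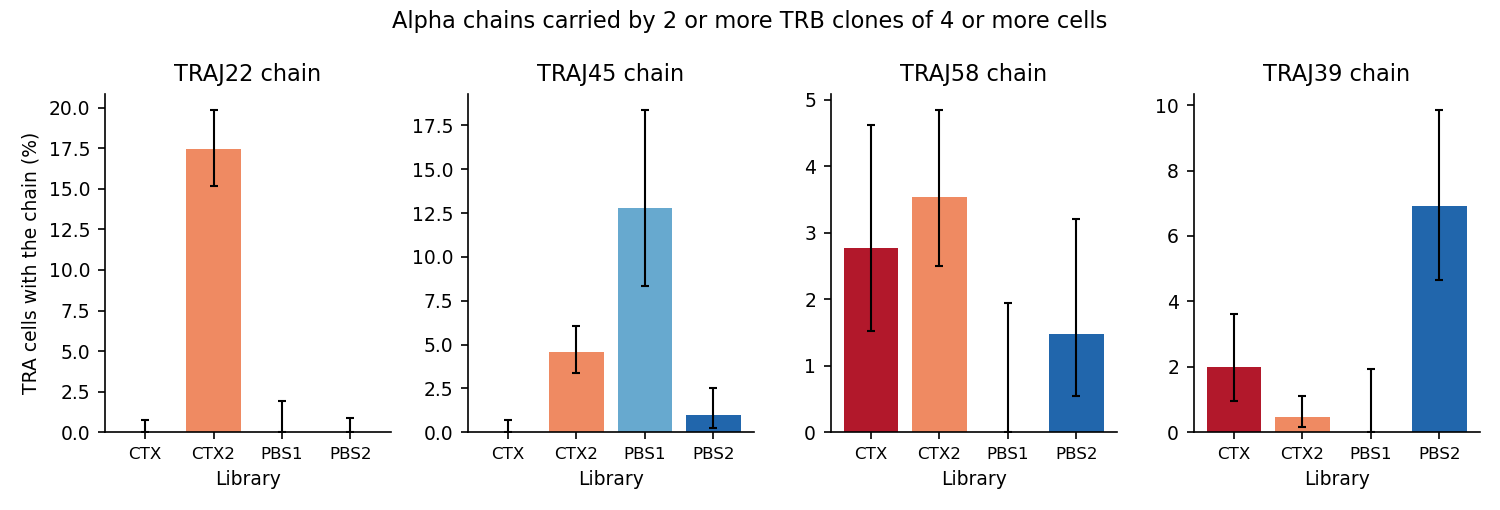
Percent of TRA cells that carry each of 4 recurrent alpha chains, named by their J gene, in each library, with exact 95% intervals (counting error only) and a separate axis for each chain. The TRAJ22 chain reaches 17.4% in CTX2 and was seen in 0 cells of the other libraries (the chain of 3 CTX cells that differs by 1 residue is not counted), and the TRAJ45, TRAJ58 and TRAJ39 chains each appear under both tags.

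Beta V gene use, with each clone counted once, showed no called difference between the tags. edgeR's quasi-likelihood test with Benjamini-Hochberg adjustment called 0 of 16 TRBV genes tested (0%), with 1 at an unadjusted p under 0.05, and DESeq2 called 0 with 0 at that level. The median size of the log2 fold change was 0.24. Of the 16 genes 3 were higher in both CTX libraries than in both PBS libraries (TRBV5, TRBV13-1 and TRBV1) and 4 lower. The counts were 4 and 2 of 12 TRBJ genes, 7 and 9 of 44 TRAV genes and 6 and 6 of 36 TRAJ genes. With no effect of the tag, 2 libraries against 2 separate in 1 direction or the other with a probability of 0.3333. A lack of overlap is therefore not read as a difference below.

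TRBV2 came closest to a difference. It was used by 2.87% of clones in CTX and 3.11% in CTX2, against 6.02% in PBS1 and 5.85% in PBS2, so the tags did not overlap (means 2.99% ± 0.165 and 5.93% ± 0.116, SD, n = 2 each). The log2 fold change of CTX against PBS was -0.96 (SE 0.20, edgeR adjusted p = 0.191, and over the alternatives the smallest adjusted p of any TRBV gene ran from 0.108 to 0.968). By cell, with the 41-cell TRBV2 leader of CTX counted in full, the order turned: 9.59% of cells in CTX, 1.57% in CTX2, 4.17% in PBS1 and 5.09% in PBS2 used it, a mean difference of 0.947 points. TRBV2 lies at chr6:41047556-41047995 (mm10) at the start of the main V cluster.

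TRBV13-2 (chr6:41121396-41121832) was used by 15.7%, 16.6%, 16.5% and 14.4% of clones in CTX, CTX2, PBS1 and PBS2, with a log2 fold change of 0.11 (SE 0.12, edgeR adjusted p = 0.837). TRBV13-1 was used by 12.3%, 13.3%, 6.77% and 12.2%, with PBS1 apart from the rest. TRBV19 ran from 8.78% in PBS2 to 13.5% in PBS1 and TRBV13-3 from 6.77% in PBS1 to 10.97% in CTX, and both overlapped between the tags. TRBV5 was at 9.92% and 9.52% in the CTX libraries and 7.52% and 7.18% in the PBS libraries, which did not overlap (log2 fold change 0.41, SE 0.15, edgeR adjusted p = 0.730). TRBV1 was at 7.05% and 7.66% against 6.77% and 5.85%, and TRBV31, a gene downstream of the J clusters that joins by inversion, at 5.22% and 6.21% against 3.76% and 6.12%. TRBV4 was at 5.22% and 4.14% against 3.01% and 7.98%. Among rarer genes, TRBV30 had a log2 fold change of 1.16 (SE 0.98) and TRBV17 of -0.86 (SE 0.38), both with edgeR adjusted p above 0.7 (0.743 and 0.730).

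Counted by cell, V gene use followed the large clones of each library. TRBV13-2 reached 33.1% of cells in CTX2, against 14.8% in CTX, 17.7% in PBS1 and 20.4% in PBS2. TRBV4 was at 12.7% in CTX2, of which its leading clone is the larger part, and between 2.08% and 7.18% elsewhere. TRBV14 was at 16.7% in PBS1 and 10.4% in CTX2, the libraries with the TRAJ45 chain in large TRBV14 clones, and at 3.38% in CTX and 4.17% in PBS2. In CTX2 the TRBV14 cells also included a 41-cell TRBJ1-5 clone, which paired with TRAV12D-2/TRAJ48 in 39 of 39 cells with a TRA. The TRBV13 family as a whole went from 37.3% of clones to 48.8% of cells in CTX2, from 30.1% to 34.4% in PBS1 and from 35.9% to 41.2% in PBS2, and in CTX from 38.9% to 35.7%.

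**Figure D4:**
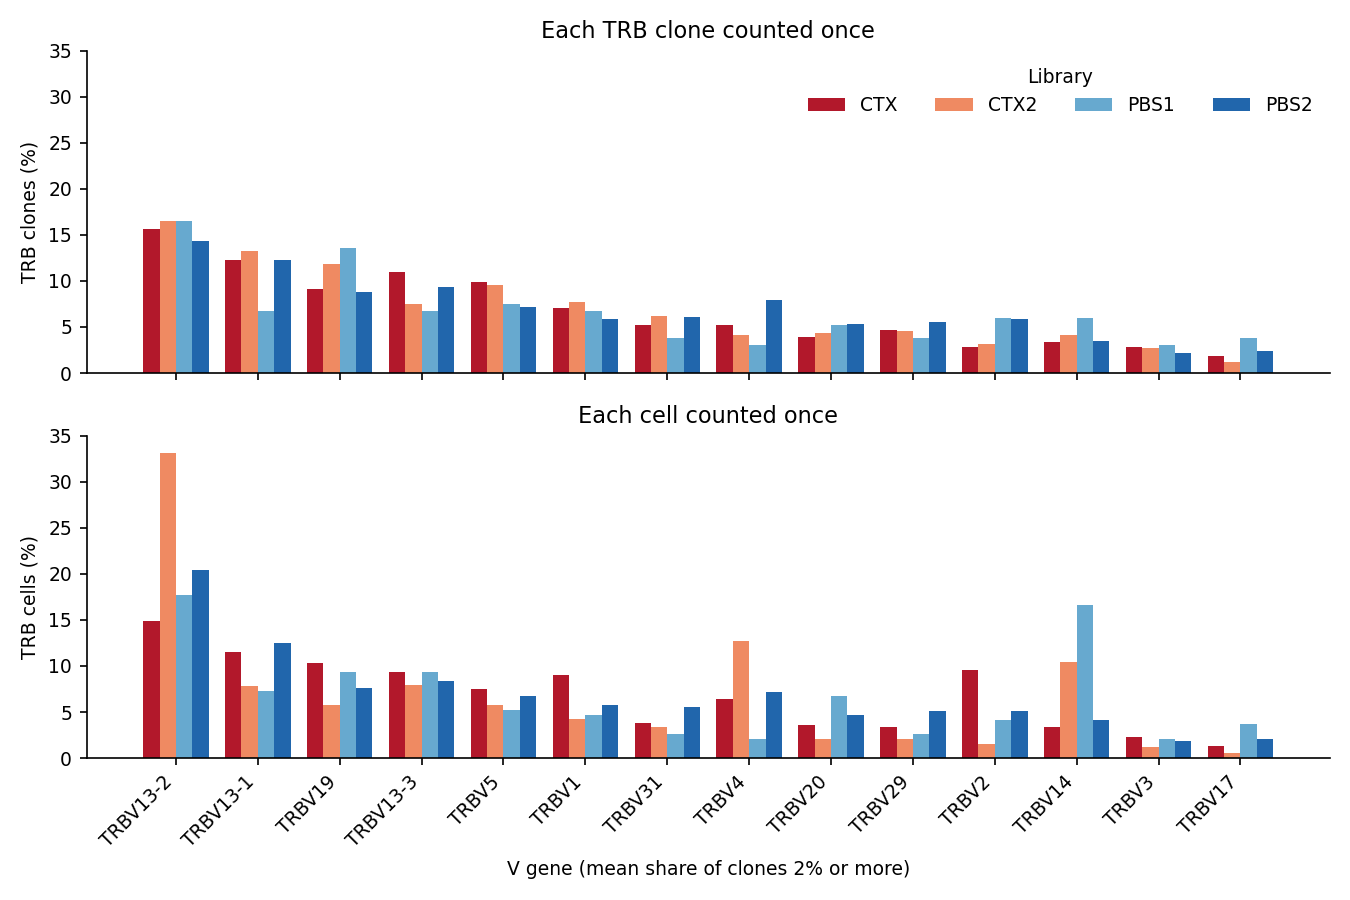
Percent of TRB clones (top) and of TRB cells (bottom) that use each V gene, in each of the 4 libraries, for genes with a mean share of clones of 2% or more. By clone TRBV13-2 lies between 14.4% and 16.6% in the 4 libraries, and by cell it reaches 33.1% in CTX2, while TRBV14 reaches 16.7% in PBS1.

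Genes whose products the endogenous mammary tumour viruses of this strain delete in the thymus (TRBV12-1, TRBV12-2, TRBV15, TRBV16 and TRBV26) were rare under both tags. Together they made up 3.39% of clones in CTX, 2.90% in CTX2, 6.77% in PBS1 and 3.19% in PBS2. PBS1 was highest through TRBV12-2, with 3.01% of clones (4 clones) against at most 0.266% in the others, and its exact interval for the list, 3.14 to 12.5, took in the shares of CTX and PBS2. Of the list, TRBV16 alone had clones enough to test (log2 fold change -0.23, SE 0.35, edgeR adjusted p = 0.837).

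Beta J gene use gave 0 of 12 genes called (0%) by the same edgeR test, with 0 at an unadjusted p under 0.05 and 0 by DESeq2 at either level. TRBJ2-7 led with 18.0%, 15.3%, 14.3% and 14.1% of clones in CTX, CTX2, PBS1 and PBS2, higher in both CTX libraries (log2 fold change 0.22, SE 0.13, edgeR adjusted p = 0.855). TRBJ2-4 was at 8.88% and 9.32% against 7.52% and 7.71%, the highest fold among genes with a larger share in the CTX libraries (0.25, SE 0.12). TRBJ1-3 was at 4.70% and 6.42% against 7.52% and 7.18%, a log2 fold change of -0.36 (SE 0.21). TRBJ1-6, at -0.35 (SE 0.50), rested on PBS1, which used it in 9.02% of clones against 3.19% to 3.93% in the other libraries. TRBJ2-1 (10.4% to 13.5%), TRBJ2-5 (9.02% to 14.9%), TRBJ1-1 (8.27% to 10.2%), TRBJ2-3 (9.02% to 10.1%), TRBJ1-4 (7.18% to 9.77%) and TRBJ2-2 (3.76% to 7.57%) made up most of the rest.

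The downstream TRBJ2 cluster, at chr6:41542754-41543856 from TRBJ2-1 to TRBJ2-7, was used by 66.6% of clones in CTX, 62.9% in CTX2, 57.1% in PBS1 and 64.9% in PBS2. The difference of means was 3.74 points (two-sided exact permutation p = 0.667, n = 2 and 2), and without PBS1 it was -0.134. By cell, TRBJ2-5 stood at 21.8% in CTX and 19.2% in PBS2 but at 6.54% in CTX2 and 6.25% in PBS1, a split across the tags. In CTX it came with the TRBV2 and TRBV19 leaders and in PBS2 with its TRBV13-2 leader. TRBJ2-4 was the reverse, at 18.2% of cells in CTX2 and 14.1% in PBS1 and 6.95% and 6.71% in CTX and PBS2. The V and J pair with most cells was TRBV2/TRBJ2-5 in CTX (41 cells in 1 clone), TRBV13-2/TRBJ2-4 in CTX2 (167 cells in 16 clones, 3.31% of clones), TRBV14/TRBJ2-4 in PBS1 (18 cells in 2 clones) and TRBV13-2/TRBJ2-5 in PBS2 (32 cells in 6 clones).

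Alpha gene use was broad, and no gene was called. The edgeR test called 0 of 44 TRAV genes (0%) and 0 of 36 TRAJ genes (0%), with 2 of each at an unadjusted p under 0.05 and 0 by DESeq2 at either level. Those 4 were TRAV6D-4, TRAV9D-1, TRAJ24 and TRAJ30, the last named after its values were seen (log2 fold change 1.16, SE 0.25, edgeR adjusted p = 0.745). TRAV9D-1 was used by 6.02% and 4.30% of clones in CTX and CTX2 and by 0.781% and 2.59% in PBS1 and PBS2 (log2 fold change 1.25, SE 0.45, edgeR adjusted p = 0.645). TRAV6D-4 was used by 2.29% and 1.58% against 0.781% and 0.287% (2.07, SE 0.65, edgeR adjusted p = 0.645). TRAJ24 was at 0.573% and 0.452% against 1.56% and 1.72% (-1.66, SE 0.38, edgeR adjusted p = 0.745). Mouse TRAV genes lie in near-identical repeated blocks, so the split between copies is uncertain, and with copies joined into 17 families 0 were called (edgeR smallest adjusted p = 0.557, against 0.295 to 0.994 over the alternatives by gene).

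TRAV16N, the alpha V gene with the largest mean share, was used by 6.30%, 5.66%, 9.38% and 4.89% of clones in CTX, CTX2, PBS1 and PBS2, and TRAV6-6 by 5.73%, 6.33%, 3.91% and 6.90%. TRAV12D-2 was at 3.72% and 3.62% in the CTX libraries and 3.91% and 6.03% in the PBS libraries, and TRAV3-3 at 2.87% and 2.71% against 4.69% and 4.60%. TRAV8D-1 was at 2.29% and 2.04% against 6.25% and 2.87%, while TRAV13-1, TRAV9-4, TRAV6-7-DV9 and TRAV14D-3-DV8 overlapped between the tags. TRAV7D-4, the alpha V gene of the CTX2 leader, had a log2 fold change of 1.53 (SE 0.69) and TRAV2 of -1.36 (SE 0.59), with edgeR adjusted p of 0.645 for both. TRAJ52 was used by 5.16%, 4.75%, 5.47% and 4.89% of clones, the narrowest range of the leading J genes. TRAJ22 was used by 5.88% of clones but 19.1% of cells in CTX2, and TRAJ45 by 4.69% of clones but 14.9% of cells in PBS1. TRAJ56 was at 5.16% and 4.30% against 3.13% and 4.02%, TRAJ53 overlapped between the tags, and TRAJ44 and TRAJ47, at log2 fold changes of 1.64 (SE 0.85) and 1.16 (SE 0.53), both had an edgeR adjusted p of 0.745.

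Invariant T cells were few in each library. The alpha pair of natural killer T cells, which see lipids on CD1d, TRAV11-TRAJ18, was found in 4 cells of CTX, 12 of CTX2, 1 of PBS1 and 1 of PBS2. That of mucosal-associated invariant T cells, TRAV1-TRAJ33, was found in 1, 3, 1 and 0 cells, where 0 of 404 in PBS2 allows up to 0.743%. Any productive alpha chain of a cell was counted. The 12 CTX2 cells with TRAV11-TRAJ18 included 1 of the 117-cell TRBV4 clone and 1 of the 41-cell TRBV14 clone, both with another main alpha chain.

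Mean TRB CDR3 length by clone was 13.8 residues in CTX, 13.7 in CTX2, 13.8 in PBS1 and 13.7 in PBS2, a difference of -0.0136 (two-sided exact permutation p = 1, n = 2 and 2) that turned to 0.00976 without CTX2 and 0.0553 without PBS1. Mean TRA CDR3 length was 13.7, 13.6, 13.8 and 13.6 residues, a difference of -0.0646 (exact permutation p = 1, n = 2 and 2), and 0.0471 without PBS1. In PBS2 34.3% of TRB clones had 14 residues, against 24.8% to 27.7% elsewhere, and the longest loop, 24 residues, was in PBS1. Loops of 12 residues made up 9.92% of clones but 19.9% of cells in CTX, and loops of 16 residues 8.27% of clones but 19.8% of cells in PBS1, the lengths of their largest clones.

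**Figure D5:**
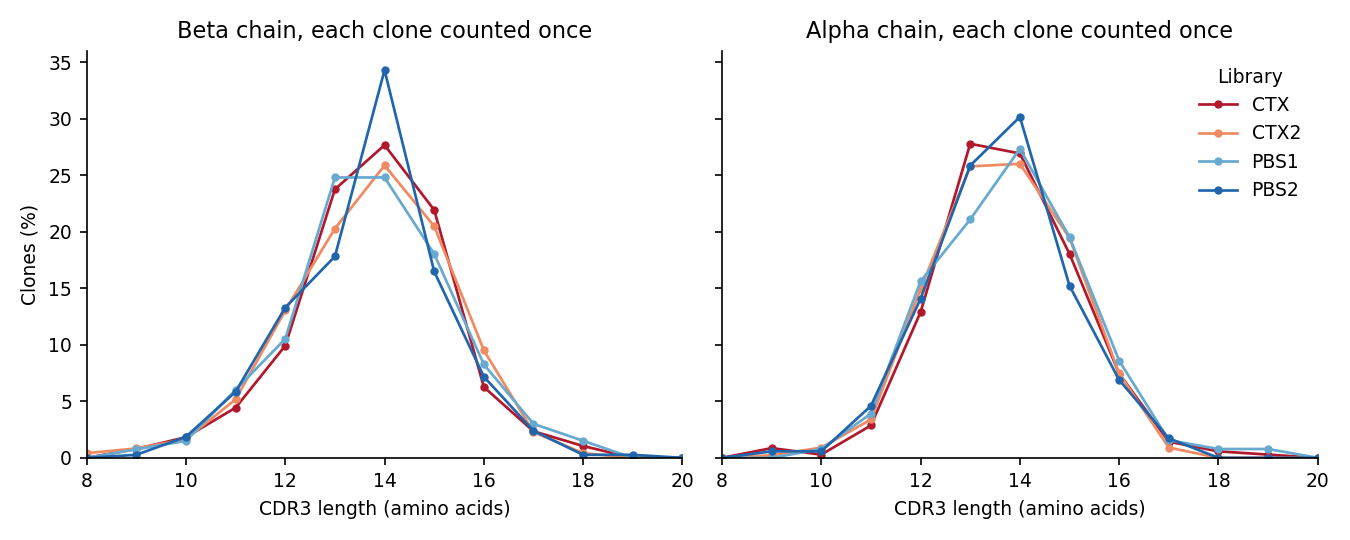
Percent of clones at each CDR3 length, in amino acids, for the beta chain (left) and the alpha chain (right), each clone counted once in each of the 4 libraries. The curves overlie each other, with PBS2 highest at 14 residues (34.3% of its TRB clones). The 24-residue loop of PBS1 lies beyond the axis.

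The mean net charge of the TRB CDR3 (lysine and arginine less aspartate and glutamate) was -0.802 in CTX, -0.785 in CTX2, -0.774 in PBS1 and -0.739 in PBS2. The CTX libraries were the lower pair, by -0.0362 (two-sided exact permutation p = 0.3333, the smallest possible, n = 2 and 2), and the difference was -0.0187 without PBS2. Weighted by cell the means were -0.953, -0.589, -0.792 and -0.824, and the difference turned to 0.0369, and to -0.145 without CTX2. Hydrophobic residues at both positions 6 and 7 of the loop, a feature tied in earlier work to self-reactive receptors, were found in 8 clones of CTX (2.09%), 11 of CTX2 (2.28%), 2 of PBS1 (1.504%) and 9 of PBS2 (2.39%). The difference of 0.234 points (exact permutation p = 1, n = 2 and 2) became -0.211 without PBS1. None of the clones of 10 or more cells had the feature.

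Both chains were recovered in 60.03% of called cells in CTX (exact 95% interval 56.5 to 63.5), 73.7% in CTX2, 70.6% in PBS1 and 68.3% in PBS2. The difference of -2.61 points (two-sided exact permutation p = 1, n = 2 and 2) was 4.21 without CTX. CTX had no productive contig of either chain in 26.0% of its called cells, where the other libraries had 14.0% to 16.8%. Thinned to 5 UMIs a cell, which leaves out 63, 31, 22 and 62 shallower cells and those with no productive contig, both chains were expected in 73.6%, 70.0%, 75.3% and 77.4%, so CTX no longer stood lowest. Cells of expanded clones had a TRA in 86.6% of cases in CTX, 95.0% in CTX2, 95.8% in PBS1 and 88.7% in PBS2, and cells of single-cell clones in 87.5%, 83.6%, 86.7% and 87.0%. In CTX2 the exact 95% intervals of these shares were 93.0 to 96.5 and 79.7 to 87.0. They count each cell as independent, while the 658 expanded cells came from 56 clones, and the difference was not tested.

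Many extra beta contigs repeated the cell's own beta chain in CTX, PBS1 and PBS2, and few did in CTX2. A second productive TRB contig was present in 23.7% of TRB cells in CTX, 4.79% in CTX2, 14.6% in PBS1 and 22.9% in PBS2 (difference -4.51 points, two-sided exact permutation p = 1, n = 2 and 2, and 4.93 without CTX2). In CTX 109 of the extra contigs had the V gene and CDR3 nucleotides of the cell's strongest contig and 30 did not, in CTX2 12 and 41, in PBS1 20 and 8 and in PBS2 83 and 33. Cells with 2 or more different TRB sequences, a count that includes doublets, made up 5.26%, 3.78%, 4.17% and 6.25% of TRB cells, a range in which the exact 95% intervals of the 4 libraries overlapped. Among the different sequences, 17 of 30 in CTX, 10 of 41 in CTX2, 0 of 8 in PBS1 and 4 of 33 in PBS2 were also the main TRB of other cells in that library.

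T cells can carry 2 alpha chains, because the alpha locus is not strictly shut on the second chromosome. A second productive TRA contig was present in 19.4% of TRA cells in CTX, 14.5% in CTX2, 17.02% in PBS1 and 20.3% in PBS2, a difference of -1.71 points (two-sided exact permutation p = 0.667, n = 2 and 2) that was 0.785 without CTX2 and 1.66 when only different CDR3 sequences were counted. Those shares were 16.7%, 13.6%, 13.8% and 13.1%. In 3 of the 14 large clones of CTX2, a second alpha chain was carried along by the clone. The 37-cell TRBV13-3/TRBJ2-7 clone had TRAV3-4/TRAJ56 in 33 cells and TRAV14N-1/TRAJ58 in 32 of 36 with a TRA. The 14-cell TRBV13-3/TRBJ1-4 clone had TRAV12D-2/TRAJ34 in 13 and TRAV6-6/TRAJ31 in 11 of 14. The 11-cell TRBV5/TRBJ2-1 clone had TRAV3-4/TRAJ57 in 10 and TRAV14-1/TRAJ58 in 10 of 11. Among smaller clones, the 9-cell TRBV13-3/TRBJ2-7 clone of PBS1 had TRAV14N-1/TRAJ37 in 9 and TRAV6-6/TRAJ33 in 7. The 8-cell TRBV13-2/TRBJ2-5 clone of CTX had TRAV13D-2/TRAJ42 in 8 and TRAV12D-2/TRAJ39 in 6, the chain it shared with PBS2. A 7-cell TRBV4/TRBJ2-2 clone of CTX had TRAV8D-1/TRAJ12 in 7 and TRAV1/TRAJ38 in 5. A 4-cell TRBV13-3/TRBJ2-5 clone of CTX had TRAV4-3/TRAJ18 in 4 and TRAV9D-1/TRAJ37 in 2. In CTX2 the 7-cell TRBV13-2/TRBJ2-4 clone had TRAV7-1/TRAJ22 in 7 and TRAV15-1-DV6-1/TRAJ33 in 6.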

How the data were processed

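Per the labels' protocols, libraries came from a Chromium 5′ kit, with mouse T cell receptor enrichment for the receptor libraries. Per the submitters' processing notes, Cell Ranger 3.0.2 and the builds mm10 and GRCm38 were used. The deposited contig table gives read counts and UMI counts, whole numbers without normalization. Its cell calls, gene names and CDR3 were kept. Of 11 library names in it, 5 matched no label and were not used.

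Doublets were kept, with their removal as an alternative. Clones per gene were compared by edgeR 4.0.16 (quasi-likelihood test, totals as library size, genes with 10 or more clones, Benjamini-Hochberg threshold 0.05), with DESeq2 1.42.0 as an alternative, in R 4.3.3. Other measures used two-sided exact permutation over libraries. Intervals are exact Clopper-Pearson at 95% and, with limits for a count of 0 (3 counts), cover counting error only. Drawn-down values are exact expectations. Named genes are TRBV and TRBJ genes at 5% of clones or more, the top 10 TRAV and 5 TRAJ genes by share, the 3 largest fold changes a class, the superantigen, NKT and MAIT lists and the 5 largest clones a library. Members and lists were chosen with earlier results of these data known, and the recurrent proteins, the alpha chains and the added alternatives after seeing the data. Gene positions came from RefSeq's table of GRCm38.p6 (140 of 140 genes matched), a strain other than BALB/c. No analysis of the expression matrices was made here. Functions were tested on simulated data. Software was matplotlib 3.10.9, pandas 2.3.3, scipy 1.17.1 and numpy 2.4.6 under Python 3.11.15.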

Additional observations from a re-analysis of the deposited data

Results flagged for a closer look

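Barcodes not called as cells held productive TRB contigs that no comparison above uses. There were 183 of them in CTX, 583 in CTX2, 55 in PBS1 and 181 in PBS2. Of these, 44.8% in CTX, 78.6% in CTX2, 63.6% in PBS1 and 59.1% in PBS2 had the V gene and CDR3 nucleotides of a clone of the same library, and 0 had those of a clone of another of the 4 libraries. Clones of 10 or more cells accounted for 19, 371, 6 and 10 of them. Large clones thus gave the larger part of these contigs in CTX2 only, with 371 of 583. In CTX they gave 19 of 183, in PBS1 6 of 55 and in PBS2 10 of 181. The part of such contigs in the clone sizes reported was not tested.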

How the results depend on the processing

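With 2 libraries a tag the exact permutation test cannot go below 0.3333, so no measure could pass 0.05, and only direction is compared here. The count of called genes was 0 in each of the 4 gene classes under every alternative run. Counting PBS2 as treated turned the share of cells in clones of 2 or more to -0.0898, that with a second TRA to 1.05 and that with a second TRB to 2.55. High-confidence contigs alone turned the second TRA to 1.83 and the second TRB to 0.484, contigs with 2 or more UMIs turned the second TRA to 1.46, and different CDR3 alone, added after seeing the data, to 1.66. Without possible doublets TRB length turned to 0.0591 and hydrophobic positions to -0.105, and with each cell counted once hydrophobic positions turned to -0.424 and net charge to 0.0369. Leaving out each library in turn gave both chains -9.43 to 4.21, a second TRA -4.20 to 0.785, a second TRB -14.0 to 4.93, TRB length -0.0825 to 0.0553, TRA length -0.176 to 0.0471, hydrophobic positions -0.211 to 0.679, TRBJ2 use -0.134 to 7.62, and 1 to 4 of the 5 proteins found under both tags. The cause of these turns was not tested. The share in clones of 10 or more kept its direction except at 192 TRB cells a library without CTX2 (-2.36), and with each cell counted once and without CTX2 hydrophobic positions stood at -0.131, both added after seeing the data. No paired analysis was possible because the groups share no replicate numbers. Few cells in PBS1 limit every value set against it.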

Other observations

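All TRB clones of the 4 libraries (383, 483, 133 and 376) had a constant region called TRBC1, including those with a TRBJ2 gene, which lies downstream of TRBC1 in the genome. A TRBD2 segment, which lies downstream of the TRBJ1 cluster, was called beside a TRBJ1 gene in 11 of 128 such clones of CTX, 10 of 179 of CTX2, 3 of 57 of PBS1 and 12 of 132 of PBS2. Constant region and D calls were therefore not compared between the tags. TRBD1 was called in 46.5%, 47.2%, 38.3% and 43.9% of clones in CTX, CTX2, PBS1 and PBS2, TRBD2 in 28.7%, 30.0%, 33.1% and 30.9%, and no D segment in the rest.

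A pair of CTX clones of 4 cells each, TRBV13-2/TRBJ2-1 and TRBV4/TRBJ1-4, carried a TRAV9-4/TRAJ2 alpha chain with the same nucleotides in 2 cells each. The 8-cell TRBV1/TRBJ1-6 clone of CTX was the largest clone with a productive TRA in 0 cells.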
